A study of Mus musculus with 6 samples.

Results

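Folding of new proteins in the endoplasmic reticulum (ER) was followed through 33 genes in 6 mouse libraries labelled as cardiac fibroblasts. After carbon tetrachloride 20 of the 32 genes that could be tested were lower, against 22.2% of all 10995 rows tested. The 33 genes were taken by symbol from a list of ER chaperones and unfolded protein response genes, chosen with earlier results of these data known. All 33 were found among the 32479 rows of the expression table. They fall into 15 chaperones and folding enzymes, 4 genes of ER-associated degradation, 4 sensor genes counting the transcription factor Xbp1, 6 genes of the PERK/ATF4 branch and 4 genes of protein translocation. Expression was given as FPKM, fragments scaled by the length of the gene model and by the mapped fragments of the library. FPKM is a level per length, so levels can be compared between genes.

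The mice were C57BL/6J, in a control group and a group given carbon tetrachloride (CCL4), with 3 mice and 3 libraries in each. CCL4 is a solvent that injures the liver, and here it served to model cirrhosis, so that its effect on the heart could be studied. The cells were primary cells isolated at the end of modelling. The sources used here give neither the treatment of the control mice nor the dose and duration of CCL4, nor the age and sex of the mice.

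The unfolded protein response is the ER's answer to a load of misfolded protein. The sensors IRE1 (gene Ern1), PERK (gene Eif2ak3) and ATF6 sit in the ER membrane. ATF6 is cut to release a transcription factor, IRE1 splices Xbp1 messenger RNA, and these factors turn on chaperones and degradation genes, while PERK slows translation and favours production of ATF4, whose targets include Ddit3, Trib3, Chac1, Asns and Ppp1r15a. In the heart the pathway is known to respond to ischaemia and pressure overload, and in fibroblasts the ER folding machinery carries procollagen. Splicing of Xbp1, cleavage of ATF6 and phosphorylation of PERK are not measured by gene-level FPKM.

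Across all rows, libraries of a group correlated at 0.983 to 0.991 and libraries of different groups at 0.954 to 0.968 (Pearson r of log2 values, given as a description). The labelled cell type was checked against markers. Mb, the muscle oxygen carrier, averaged 4073 FPKM over the 6 libraries, Actc1, the cardiac actin, 3787 FPKM, and the fibroblast markers Gsn and Dcn 386 and 92.4 FPKM, while Pdgfra, a receptor of resident fibroblasts, stood at 3.97 ± 0.654 FPKM in the controls and 3.58 ± 0.105 FPKM in CCL4 libraries (SD, n = 3 each). Heart muscle transcripts were thus far above those of fibroblast markers. The summed level of 20 cardiomyocyte markers ranged from 19225.5 to 22299.6 FPKM in the controls and from 24403.4 to 26715.4 FPKM in CCL4 libraries, with 5 of the 20 called higher and 2 lower (called meaning an adjusted p under 0.05 in limma, a linear model fitted to log2(FPKM + 1) of all rows). For 16 fibroblast markers the ranges were 489 to 804 and 668 to 678 FPKM, with 9 called higher, among them Col1a1 at 4.02 ± 1.24 and 17.2 ± 1.11 FPKM, and 0 lower. Over all rows tested 9.64% were called higher and 22.2% lower. No marker of these lists was at 0 in every library. The part of cell makeup in the changes described next was not tested, and fewer cells of a type and less RNA per cell cannot be told apart in such samples.

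Promoter sequences show which of these genes carry the classical ER stress element (ERSE), made of CCAAT and CCACG with 9 bases between them, to which ATF6 binds beside the CCAAT-binding factor NF-Y. RefSeq windows of 300 bases (250 before to 50 after the transcript start, build GRCm38.p6) were given for 28 of the 33 genes. ERSE was found on either strand in 8 of those 28 (28.6%), against 39 of all 32851 windows (0.119%) and 13 of 10364 windows of the genes tested (0.125%). The related ERSE-II, ATTGG and CCACG with 1 base between them, was found in 2 of 28, against 12 of all windows (0.0365%). The genes were listed as ER chaperones and unfolded protein response genes, so higher shares follow from that choice. The shares here and below are a description and not a test. The matches are shown 5′ to 3′ in the direction of the motif, with its fixed letters in capitals and 10 bases on each side, because all 10 of these genes were among those lower in CCL4.
Hspa5, chr2:34772015-34772053, plus strand: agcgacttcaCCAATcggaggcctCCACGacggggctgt
Hsp90b1, chr10:86705628-86705666, minus strand: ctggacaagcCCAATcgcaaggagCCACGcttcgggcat
Hsp90b1, chr10:86705523-86705561, plus strand: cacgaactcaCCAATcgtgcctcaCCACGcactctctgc
Calr, chr8:84847065-84847103, plus strand: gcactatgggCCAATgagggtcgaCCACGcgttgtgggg
Canx, chr11:50325790-50325828, minus strand: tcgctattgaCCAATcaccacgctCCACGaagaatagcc
Pdia6, chr12:17266481-17266519, plus strand: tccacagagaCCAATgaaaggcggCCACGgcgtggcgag
Dnajc3, chr14:118937817-118937855, plus strand: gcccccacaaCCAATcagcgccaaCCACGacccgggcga
Creld2, chr15:88819510-88819548, minus strand: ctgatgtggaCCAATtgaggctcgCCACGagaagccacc
Syvn1, chr19:6046522-6046560, plus strand: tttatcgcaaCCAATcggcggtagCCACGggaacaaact
Herpud1 (ERSE-II), chr8:94386367-94386397, plus strand: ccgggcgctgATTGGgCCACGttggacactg
Dnajb11 (ERSE-II), chr16:22857842-22857872, plus strand: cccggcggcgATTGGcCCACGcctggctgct

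An ATF4-type element was searched as TGATGNAA on either strand, a shortened form of the sites that ATF4 shares with C/EBP factors. It was found in 4 of the 28 windows (14.3%), against 1304 of all windows (3.97%) and 222 windows of the genes tested (2.14%). The holders were the ATF4 targets Asns, Chac1 and Trib3, and Herpud1, which also holds ERSE-II.
Asns, chr6:7693215-7693242, minus strand: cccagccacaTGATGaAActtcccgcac
Chac1, chr2:119351039-119351066, minus strand: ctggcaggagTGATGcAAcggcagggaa
Trib3, chr2:152344029-152344056, plus strand: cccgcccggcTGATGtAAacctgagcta
Herpud1, chr8:94386307-94386334, minus strand: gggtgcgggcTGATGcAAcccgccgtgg
The XBP1-type core TGACGTGG was in 0 of the 28 windows and in 0.676% of all windows. A match describes letters in a window and not a bound site, and a factor may act outside it.

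The comparison of CCL4 with control asked which of these genes differ in the cardiac cells of mice given CCL4. Of 32 tested genes, 20 were lower, 2 were higher and 10 did not pass an adjusted p of 0.05 in limma. Over all 10995 rows tested the share called lower was 22.2% and the share called higher 9.64%. Control and CCL4 libraries were fully separated for 23 of the 32 genes (48.7% of all rows), 21 with all CCL4 libraries below all control libraries (34% of all rows) and 2 with all above (14.7% of all rows). The median log2 fold change over the 32 genes was -0.34, against -0.09 over all rows. The members and the lists used below were chosen with earlier results of these data known. Such contrasts with all rows are therefore descriptions and not independent tests. In 14 of the 20 lower genes the call was kept in each alternative analysis in which the gene was tested. The other 6 were Sdf2l1, Manf, Hyou1, Syvn1, Atf4 and Trib3. With no filter on low values Sdf2l1, Manf, Hyou1, Trib3 and, among the higher genes, Ddit3 were not called (limma adjusted p 0.0569 to 0.113). Chac1, among the lower genes, reached the mean of 1 FPKM needed for testing only through its control values. The number of lower members was 14 to 20 when 1 library was left out.

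**Figure D1:**
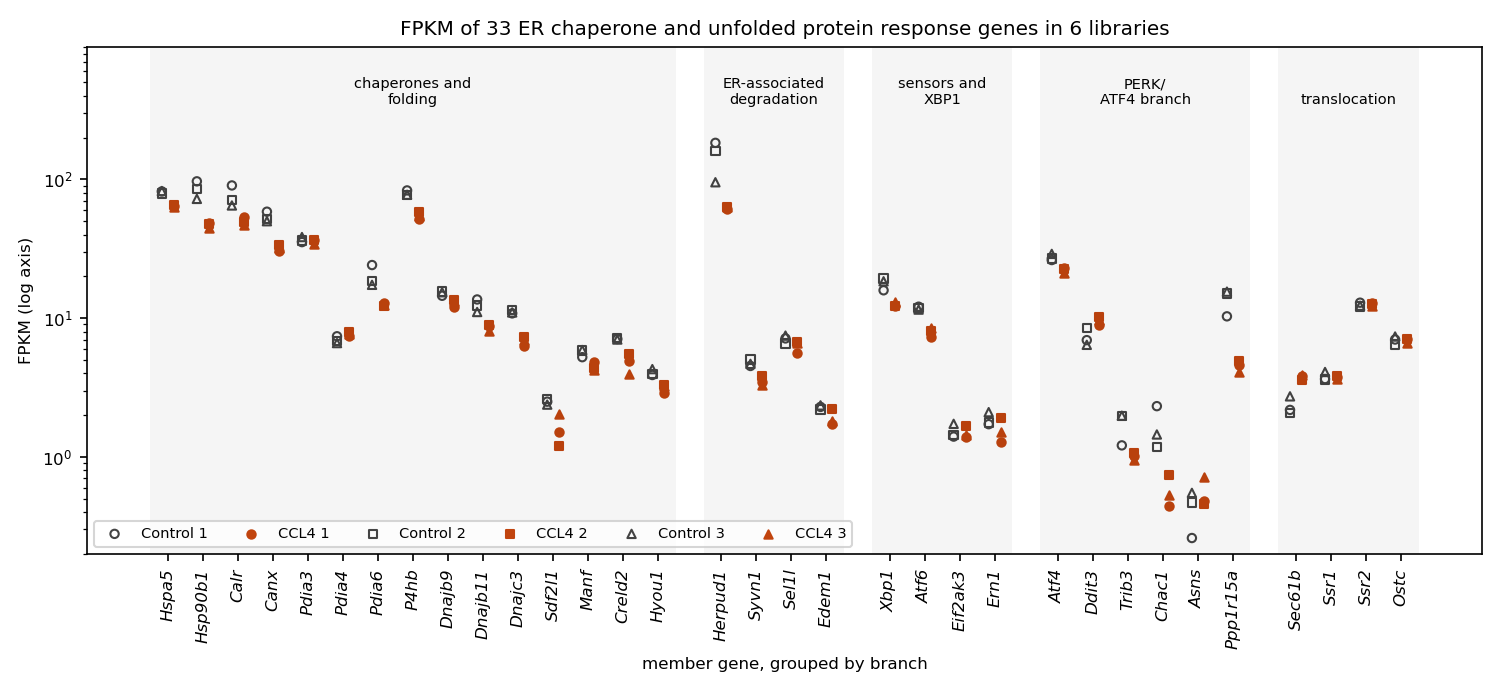
FPKM on a log axis for the 33 genes, grouped by branch, with 1 point per library (open symbols control, filled symbols CCL4, shapes the replicate number). CCL4 points lie below all control points for most chaperones, for Herpud1 and for Ppp1r15a, and above them for Ddit3 and Sec61b.

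Chaperones and folding enzymes formed the largest group, and 12 of its 15 members were lower and 0 higher, beside 22.2% and 9.64% of all rows. Their median log2 fold change was -0.47, and their summed level was 535, 484 and 467 FPKM in the control libraries and 347, 355 and 338 FPKM in the CCL4 libraries. The changes were modest in size, with CCL4 means of the 12 lower genes at 55.6% to 79.1% of control means.

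Hspa5 encodes BiP, the HSP70 chaperone of the ER lumen that also holds the sensors inactive, and lies on chromosome 2 at 34771970 to 34777547 (GENCODE M21, GRCm38). It was at 81.9, 79.3 and 82.5 FPKM in the controls and 64.3, 65.1 and 63.4 FPKM in CCL4 libraries. The replicates were tight and the groups well apart, and the log2 fold change was -0.33 ± 0.07 (SE; limma adjusted p = 0.00815). Its partner Hsp90b1, the ER member of the HSP90 family, on chromosome 10 at 86690209 to 86705509, was at 96.8, 85.0 and 72.4 FPKM in the controls and 48.9, 47.6 and 44.8 FPKM in CCL4 libraries. Control libraries spread more than CCL4 libraries, yet the lowest of them was well above the highest CCL4 library. With a log2 fold change of -0.83 ± 0.11 (limma adjusted p = 0.00145) Hsp90b1 fell the most of the 15. It shares 10.3% of its exon bases with the pseudogene 1810014B01Rik on the opposite strand, which averaged 2.22 FPKM.

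Calreticulin and calnexin are the lectins that hold newly glycosylated proteins until they are folded. Calr was at 90.4, 70.7 and 64.9 FPKM in the controls and 53.2, 49.1 and 46.6 FPKM in CCL4 libraries, and Canx at 58.5, 51.6 and 49.95 FPKM and at 30.6, 33.9 and 32.1 FPKM. Neither gene's groups overlapped. Canx fell to 60.4% of its control mean (log2 fold change -0.71 ± 0.09, limma adjusted p = 0.00103) and Calr to 65.9% (95% interval of the log2 fold change -0.87 to -0.29, limma adjusted p = 0.0104).

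Disulfide isomerases, which form and reshuffle the disulfide bonds of secreted proteins, were divided. P4hb, which is also the beta subunit of the collagen prolyl 4-hydroxylase, was at 83.3, 77.0 and 77.5 FPKM in the controls and 51.7, 57.9 and 54.2 FPKM in CCL4 libraries (log2 fold change -0.53 ± 0.08, limma adjusted p = 0.00213). Pdia6 was at 24.1, 18.5 and 17.4 FPKM and at 12.9, 12.3 and 12.4 FPKM (-0.62 ± 0.12, limma adjusted p = 0.00637). These genes had no overlap between the groups, which was not so for the remaining isomerases. Pdia3, the isomerase that works with calreticulin and calnexin, was at 35.3, 36.2 and 38.4 FPKM in the controls and 36.9, 36.9 and 34.5 FPKM in CCL4 libraries, with a 95% interval of the log2 fold change of -0.19 to 0.15 (limma adjusted p = 0.833). Pdia4 was at 7.40, 6.86 and 6.61 FPKM and at 7.40, 7.90 and 7.72 FPKM (interval -0.04 to 0.29, limma adjusted p = 0.223), and was called higher with trimmed mean of M-values (TMM) scaling (0.22, limma adjusted p = 0.0371). The interval of Pdia3 did not reach the estimates of its lectin partners, although the difference between these genes was not itself tested.

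J-domain proteins drive the ATP cycle of BiP, and 2 of 3 were lower. Dnajc3, which also restrains PERK, was at 10.8, 11.5 and 10.99 FPKM in the controls and 6.26, 7.35 and 6.97 FPKM in CCL4 libraries (-0.62 ± 0.08, limma adjusted p = 0.00122). Dnajb11 was at 13.6, 12.4 and 11.1 FPKM and at 8.80, 8.99 and 8.10 FPKM (-0.47 ± 0.09, limma adjusted p = 0.00692). For both, control and CCL4 libraries were separate. Dnajb9, an XBP1 target that binds IRE1, had all CCL4 libraries (12.1 to 13.5 FPKM) below all control libraries (14.5 to 15.6 FPKM) but did not pass (log2 fold change -0.21, limma adjusted p = 0.0664). It was called when each library was rescaled to the same sum (TPM; -0.37, limma adjusted p = 0.00978), with mitochondrial rows removed (-0.28, limma adjusted p = 0.0343) and among genes of at least 5 FPKM (limma adjusted p = 0.0486).

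The remaining folding genes were of low level. Creld2, a secreted ER stress protein, was at 7.07, 7.17 and 7.01 FPKM in the controls and 4.87, 5.47 and 3.96 FPKM in CCL4 libraries (-0.50 ± 0.10, limma adjusted p = 0.00868). Hyou1, a large HSP70 relative that recharges BiP with ATP, was at 3.89, 3.97 and 4.29 FPKM and at 2.88, 3.28 and 3.23 FPKM (-0.29 ± 0.08, limma adjusted p = 0.0233). Manf, a secreted protein that is kept in the ER by BiP, was at 5.23, 5.83 and 5.89 FPKM and at 4.84, 4.34 and 4.21 FPKM (-0.28 ± 0.08, limma adjusted p = 0.0304). In these genes too every CCL4 library was below every control library. Sdf2l1, a partner of J-domain proteins, was at 2.50, 2.62 and 2.38 FPKM and at 1.51, 1.19 and 2.02 FPKM (-0.46 ± 0.12, limma adjusted p = 0.0218). The call of Hyou1 was lost without control replicate 2, control replicate 3, CCL4 replicate 1 or CCL4 replicate 3 (limma adjusted p 0.0574 to 0.0694), that of Manf without control replicate 2, control replicate 3, CCL4 replicate 2 or CCL4 replicate 3 (0.083 to 0.108), and that of Sdf2l1 without control replicate 2, CCL4 replicate 1 or CCL4 replicate 2 (0.0575 to 0.0659). With TMM scaling Hyou1 and Manf were not called (limma adjusted p = 0.0512 and 0.134).

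**Figure D2:**
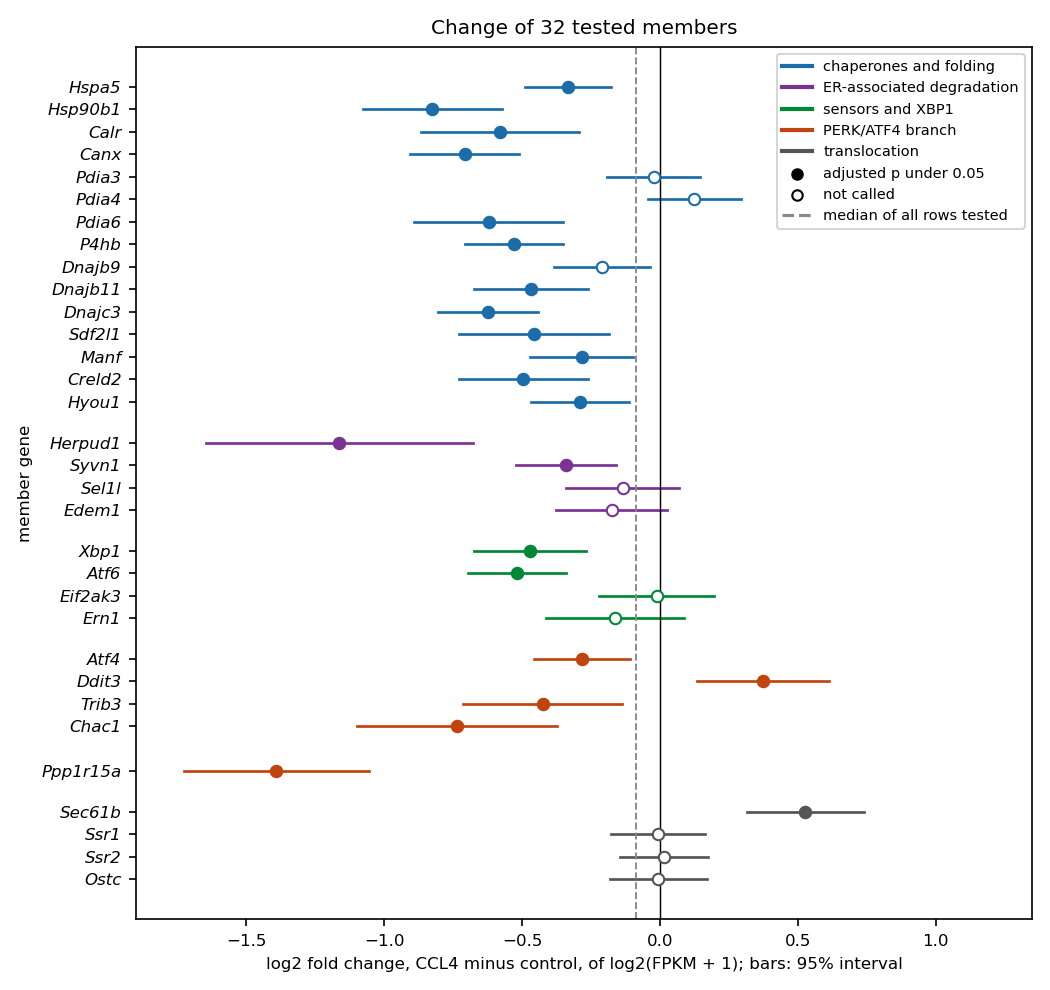
Log2 fold change (CCL4 minus control, of log2(FPKM + 1)) with its 95% interval for the 32 tested genes, coloured by branch, filled where the adjusted p was under 0.05; the dashed line is the median of all rows tested, -0.09. Most chaperones lie between -0.83 and -0.28, Herpud1 and Ppp1r15a lie beyond -1.1, and Ddit3 and Sec61b lie to the right of 0.

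In ER-associated degradation, which pulls misfolded proteins out to the proteasome, 2 of 4 members were lower and 0 higher, with a median of -0.26. Over all rows 22.2% were lower and 9.64% higher. Herpud1, a scaffold of the degradation complex, lies on chromosome 8 at 94386438 to 94395377 and had the highest mean of the 33 genes in the controls; after CCL4 each Hspa5 value was above each Herpud1 value. It was at 183, 160 and 95.4 FPKM in the controls and 61.0, 63.4 and 62.9 FPKM in CCL4 libraries. Control replicate 3 stood nearest to the CCL4 libraries, which were within a coefficient of variation of 2.0%, against 31.2% in control. The fall was 1.16 ± 0.21 on the log2 scale (SE; limma adjusted p = 0.00537), and 1.07% of all tested rows had a lower estimate. Syvn1, the ubiquitin ligase of the complex, was at 4.52, 5.03 and 4.68 FPKM and at 3.49, 3.84 and 3.29 FPKM (-0.34 ± 0.08, limma adjusted p = 0.0142). This call was lost without control replicate 2 (0.0539) or CCL4 replicate 3 (0.06), and Syvn1 shares 1.87% of its exon bases with Mrpl49 on the opposite strand, at 13.8 FPKM. Sel1l, the adaptor of that ligase, was at 7.06 ± 0.465 and 6.35 ± 0.609 FPKM (SD, n = 3 each) with overlapping groups (95% interval -0.34 to 0.07, limma adjusted p = 0.272). Edem1, which marks glycoproteins for removal, was at 2.28 ± 0.0755 and 1.91 ± 0.269 FPKM (SD, n = 3 each; interval -0.38 to 0.03, limma adjusted p = 0.162), and was called lower as TPM (limma adjusted p = 0.04).

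Among the sensors, the transcription factor genes fell and the kinase genes did not pass the test. Atf6 was at 12.1, 11.9 and 11.5 FPKM in the controls and 7.31, 8.07 and 8.53 FPKM in CCL4 libraries (-0.52 ± 0.08, limma adjusted p = 0.0024). Xbp1 was at 15.9, 19.3 and 18.4 FPKM and at 12.3, 12.2 and 13.2 FPKM (-0.47 ± 0.09, limma adjusted p = 0.00625). Neither overlapped between groups, and their CCL4 means were 67.4% and 70.4% of control. The PERK gene Eif2ak3 was at 1.40, 1.43 and 1.73 FPKM and at 1.38, 1.68 and 1.44 FPKM (interval -0.22 to 0.20, limma adjusted p = 0.936). The IRE1 gene Ern1 was at 1.72, 1.77 and 2.1 FPKM and at 1.29, 1.91 and 1.5 FPKM (interval -0.41 to 0.09, limma adjusted p = 0.281). With a pseudocount of 0.1 neither kinase was called (Eif2ak3 -0.017, limma adjusted p = 0.938; Ern1 -0.25, limma adjusted p = 0.277). Over the 4 genes the median was -0.32.

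The PERK/ATF4 branch held the largest fall and 1 of the 2 rises. Of its 5 tested genes 4 were lower and 1 higher, beside 22.2% and 9.64% of all rows, with a median of -0.42. The number lower was 2 with TMM scaling and without control replicate 2, control replicate 3, CCL4 replicate 2 or CCL4 replicate 3. Atf4 itself, which is controlled mainly through translation, was at 26.2, 26.9 and 29.0 FPKM in the controls and 23.1, 22.6 and 21.3 FPKM in CCL4 libraries (-0.28 ± 0.08, limma adjusted p = 0.0238). The groups did not overlap, but the call was lost with TMM scaling (-0.18, limma adjusted p = 0.124) and without control replicate 2, control replicate 3, CCL4 replicate 2 or CCL4 replicate 3 (0.0581 to 0.0966).

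Ppp1r15a, also called Gadd34, recruits the phosphatase that ends the PERK signal, and is induced by many acute stresses as well as by ATF4. It lies on chromosome 7 at 45522916 to 45526268. Its level was 10.3, 15.1 and 15.5 FPKM in the controls and 4.56, 4.87 and 4.09 FPKM in CCL4 libraries. The CCL4 mean was 33.1% of the control mean, the lowest share of the 33 genes (-1.39 ± 0.15, limma adjusted p = 0.000515), and 0.646% of all tested rows had a lower estimate. Control replicate 1 was the lowest of its group and still above every CCL4 library.

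Chac1, which degrades glutathione, was at 2.32, 1.18 and 1.45 FPKM in the controls and 0.44, 0.74 and 0.53 FPKM in CCL4 libraries (-0.74 ± 0.16, limma adjusted p = 0.0102). On the scale used, which understates changes of low genes, its fall was smaller than that of Ppp1r15a. With a pseudocount of 0.1 in place of 1 it was -1.36. Chac1 averaged 1.65 FPKM in the controls and 0.57 FPKM in CCL4 libraries. It thus reached the minimum mean of 1 FPKM only through the controls. With no filter it was still called, narrowly (limma adjusted p = 0.0491). Trib3, a pseudokinase induced by ATF4, was at 1.21, 1.98 and 1.98 FPKM and at 1.02, 1.06 and 0.95 FPKM (-0.42 ± 0.13, limma adjusted p = 0.0347). Leaving out any library but control replicate 1 ended that call (limma adjusted p 0.0721 to 0.108), as did TMM scaling (0.0671). Asns, the asparagine synthetase, was at 0.26 to 0.55 FPKM in the controls and 0.46 to 0.72 FPKM in CCL4 libraries, below the minimum mean of 1 FPKM, and was not tested.

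Ddit3 encodes CHOP, a transcription factor linked to cell death in prolonged ER stress, and it went the other way. It was at 6.94, 8.45 and 6.42 FPKM in the controls and 8.96, 10.3 and 9.77 FPKM in CCL4 libraries. All CCL4 libraries were above all control libraries, and the log2 fold change was 0.37 ± 0.10 (limma adjusted p = 0.0283). The call was lost as TPM (0.25, limma adjusted p = 0.11), with mitochondrial rows removed (0.31, limma adjusted p = 0.0597) and without control replicate 1, control replicate 3, CCL4 replicate 2 or CCL4 replicate 3 (0.0637 to 0.089). The estimate was above 0 in each alternative, from 0.25 to 0.47. GENCODE gives the symbol Ddit3 to 2 overlapping gene models on chromosome 10, while the table has a single row of that name, so which model the row holds cannot be told.

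Translocation genes, which bring nascent chains into the ER, did not share the fall. Of the 4 members 0 were lower and 1 higher, beside 22.2% and 9.64% of all rows. The median was 0.00472, -0.14 as TPM and 0.10 with TMM. Sec61b, a small subunit of the translocation channel, was at 2.18, 2.06 and 2.73 FPKM in the controls and 3.84, 3.59 and 3.90 FPKM in CCL4 libraries. These groups were separate (0.53 ± 0.09, limma adjusted p = 0.00478), and the call was kept in each of 15 alternatives (0.46 to 0.69). Of the 31-base words of Sec61b transcripts 21.1% also occur in the gene Gm10320, which averaged 0.0833 FPKM. Of the words of Ssr2 transcripts 13.7% also occur in Rtraf, which averaged 32.9 FPKM, above Ssr2 itself, so the level of Ssr2 is uncertain. Ssr1 and Ssr2, subunits of the translocon-associated complex, were at 3.78 ± 0.269 and 12.45 ± 0.414 FPKM in the controls and 3.75 ± 0.0854 and 12.6 ± 0.356 FPKM in CCL4 libraries (SD, n = 3 each). Ostc, an oligosaccharyltransferase subunit that adds glycans to nascent chains, was at 6.95 ± 0.458 and 6.91 ± 0.269 FPKM (SD, n = 3 each). Their 95% intervals were -0.18 to 0.16, -0.14 to 0.17 and -0.18 to 0.17 (limma adjusted p = 0.944, 0.884 and 0.96), so falls of the size seen in Hsp90b1 or Canx lay outside them.

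The presence of an ER stress element can be set beside these changes. All 10 members with ERSE or ERSE-II in the window were lower in CCL4, with a median log2 fold change of -0.60. Of the 17 other tested members with a window 7 were lower and 2 higher, with a median of -0.17. These include Atf4, Ppp1r15a and P4hb among the lower genes, and Ddit3 and Sec61b as the higher ones. The 10 holders are all folding or degradation genes, while the 17 others also span the sensor, PERK/ATF4 and translocation branches. The part of branch in this difference was not tested. Outside the 33 genes, 12 further tested genes held ERSE or ERSE-II, of which 8 were lower, 0 higher and 4 not called, with a median of -0.33, against 22.2% lower over all rows. Only Alg12 of these 12 has a window that overlaps the window of a member, Creld2, its neighbour, and it was at 0.17 ± 0.09 (limma adjusted p = 0.18). Of 208 further tested genes with the ATF4-type letters 53 were lower and 17 higher, with a median of -0.10. Over all rows 22.2% were lower and 9.64% higher, with a median of -0.09. All 3 tested members with those letters, Herpud1, Chac1 and Trib3, were lower. Herpud1 also holds ERSE-II, Chac1 was tested only through its control values, and Trib3 lost its call in some alternatives. Asns, which holds the letters but was not tested, had a CCL4 mean at 130% of control, with overlapping groups. Among the genes with ERSE the size of the change varied, between Hspa5, which fell by 0.33, and Hsp90b1, with 2 matches, which fell by 0.83.

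**Figure D3:**
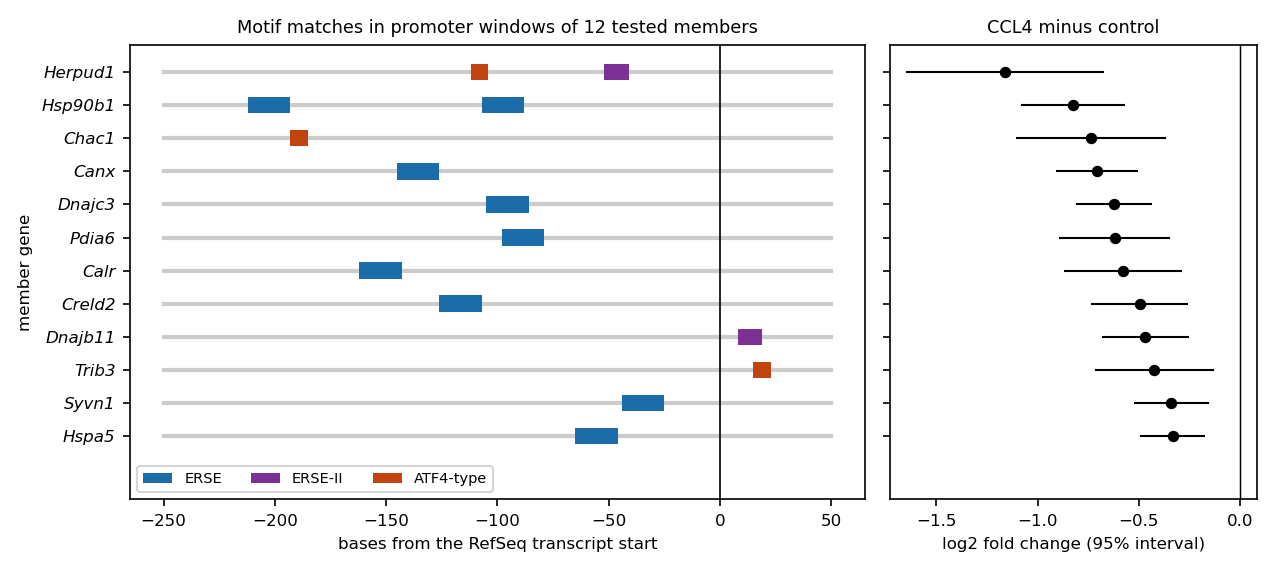
Left, positions of ERSE, ERSE-II and ATF4-type matches in windows from 250 bases before to 50 after the RefSeq transcript start, for the 12 tested genes that hold any. Right, the log2 fold change of each gene with its 95% interval, from -1.16 in Herpud1 to -0.33 in Hspa5, all of them below 0.

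Other genes of the same pathways were read from lists of 137 genes in the table, of which 122 were tested. Among them 33 were lower and 5 higher, beside 22.2% and 9.64% of all rows, and the median was -0.13. Of 25 other folding genes 4 were lower and 1 higher. The number lower was 2 without control replicate 2, CCL4 replicate 2 or CCL4 replicate 3, with TMM, with no filter or with the replicate block, and 8 as TPM, and the number higher was 4 with TMM and 2 without control replicate 3. The prolyl isomerase Fkbp10, a partner in collagen folding, fell from 12.4 ± 1.08 to 6.64 ± 0.197 FPKM (SD, n = 3 each; -0.81 ± 0.08, limma adjusted p = 0.000443), and Fkbp2 from 4.41 ± 0.102 to 3.15 ± 0.167 FPKM. Serpinh1, the collagen-specific chaperone, was the single gene of this list that rose, from 27.7 ± 3.91 to 49.8 ± 2.14 FPKM (limma adjusted p = 0.00133). Cnpy2 was lower as well (-0.31, limma adjusted p = 0.0301), a call lost without control replicate 2, control replicate 3, CCL4 replicate 2 or CCL4 replicate 3.

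Of 24 other degradation genes 10 were lower and 0 higher, beside 22.2% and 9.64% of all rows, with a median of -0.20. The number lower was 5 without control replicate 2 or CCL4 replicate 3 and 16 as TPM, and 1 gene was higher without control replicate 1 or CCL4 replicate 1, with TMM and with library weights. The cytosolic glycanase Ngly1 fell from 4.69 ± 0.11 to 3.28 ± 0.11 FPKM, the lipid droplet and degradation protein Aup1 from 14.9 ± 0.739 to 10.7 ± 0.82 FPKM, and the selenoprotein Selenok from 23.3 ± 0.944 to 17.01 ± 1.37 FPKM (SD, n = 3 each; limma adjusted p = 0.00378, 0.00602 and 0.00627). Of 22 other ATF4-linked genes 12 were lower and 1 higher, beside the same shares of all rows, with a median of -0.25. The number higher was 2 without control replicate 1, with TMM or with library weights. Vldlr, a lipoprotein receptor, fell from 49.7 ± 4.81 to 14.7 ± 1.21 FPKM, Ddit4, an inhibitor of mTOR signalling, from 34.9 ± 3.60 to 6.45 ± 1.28 FPKM, and Cebpb, a transcription factor, from 30.5 ± 3.93 to 8.32 ± 0.805 FPKM (limma adjusted p = 6.94e-05, 7.77e-05 and 8.39e-05). Each of these genes also answers to signals other than ATF4. Aldh18a1, an enzyme of proline synthesis, rose from 0.903 ± 0.229 to 2.12 ± 0.537 FPKM (limma adjusted p = 0.00919). It reached the mean of 1 FPKM needed for testing only through its CCL4 values.

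Of 18 other sensors and regulators 3 were lower and 3 higher, beside 22.2% and 9.64% of all rows. The number lower was 8 as TPM and 6 with mitochondrial rows removed. Under these settings 4221 of 10995 and 3122 of 10958 rows were lower over all. The number higher was 1 at a minimum mean of 5 FPKM. Rtcb, the ligase that joins Xbp1 messenger RNA after IRE1 has cut it, fell from 25.4 ± 1.39 to 16.8 ± 0.171 FPKM (limma adjusted p = 0.00125), and Map3k5, a kinase downstream of IRE1, from 8.44 ± 1.09 to 5.38 ± 0.159 FPKM (limma adjusted p = 0.00448). Mbtps2, the protease that completes the cleavage of ATF6, was at 1.76 ± 0.115 and 1.21 ± 0.123 FPKM (SD, n = 3 each; limma adjusted p = 0.0214), a call lost without control replicate 3 or CCL4 replicate 3. Creb3l1, an ATF6-like factor that promotes collagen secretion, rose from 0.74 ± 0.0173 to 1.31 ± 0.131 FPKM (limma adjusted p = 0.00826), and the apoptosis gene Bak1 from 4.0 ± 0.468 to 5.70 ± 0.30 FPKM (limma adjusted p = 0.00892). Creb3l1 reached the mean of 1 FPKM needed for testing only through its CCL4 values. Wfs1, an ER membrane protein, was higher by 0.48 ± 0.12 (limma adjusted p = 0.021), but not as TPM or without control replicate 2, CCL4 replicate 2 or CCL4 replicate 3. Of 33 other translocation genes 4 were lower and 0 higher, beside 22.2% and 9.64% of all rows, with a median of -0.11. The number lower was 19 as TPM and 8 with mitochondrial rows removed. Srp68, a subunit of the signal recognition particle, fell from 31.7 ± 0.805 to 17.7 ± 0.649 FPKM (limma adjusted p = 0.000245), Sec63, a J-domain protein at the channel, from 8.0 ± 0.439 to 4.97 ± 0.32 FPKM (0.0014), and the receptor subunit Srpr by 0.33 (0.0131).

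**Figure D4:**
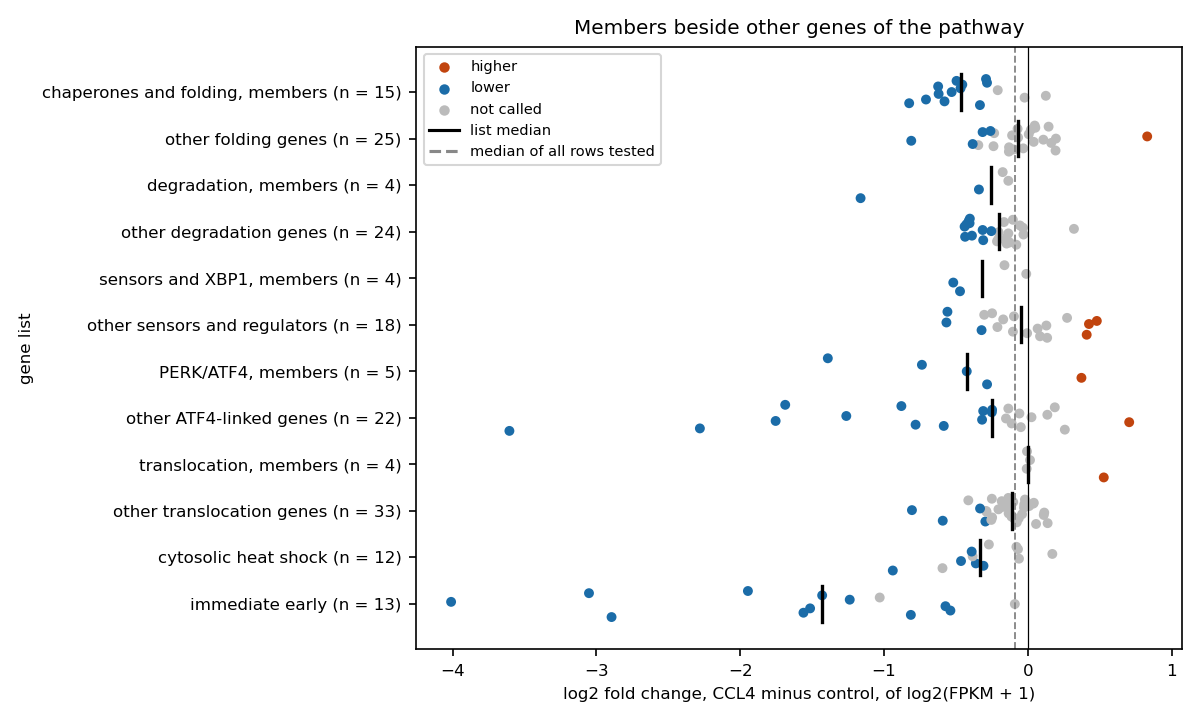
Log2 fold change of each tested gene (1 point per gene, coloured by its call) for the 5 branches of members, the other genes of each pathway, and the cytosolic heat shock and immediate early lists, with list medians as black bars. Chaperone members centre on -0.47, other folding genes near the dashed median of all rows, and immediate early genes at -1.43.

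Some other measures moved with the groups and some did not. For the counts of called genes below, the shares over all rows were 22.2% lower and 9.64% higher. Immediate early genes, which many stimuli switch on within minutes, were lower in 11 of 13 tested, and the summed level of all 16 on the list was 250 to 385 FPKM in the controls and 101 to 103 FPKM after CCL4 (exact permutation test, two-sided, p = 0.1, the lowest value possible with 3 against 3 libraries; 0.25 adjusted over 10 library measures). Zfp36 and Btg2 of that list fell by 1.95 and 3.05 on the log2 scale. Cytosolic heat shock genes were lower in 5 of 12, among them Hsp90ab1 by 0.46 ± 0.08 and Hspa8 by 0.31 ± 0.08, with sums of 923 to 970 and 698 to 801 FPKM (exact permutation p = 0.1; 0.25 adjusted). The number lower was 1 without control replicate 2, CCL4 replicate 2 or CCL4 replicate 3, 3 without control replicate 3 or CCL4 replicate 1, and 1 with TMM scaling, with no filter on low values or with the replicate block; the Hspa8 call was among those lost under each of these settings that left 1. The 37 rows of the mitochondrial genome took 48.6% to 50.7% of the FPKM sum in control and 52.0% to 53.2% in CCL4 libraries (exact permutation p = 0.1; 0.25 adjusted). Endothelial, macrophage, and smooth muscle and pericyte markers summed to 215 to 247, 155 to 199 and 249.2 to 270 FPKM in control, and to 222 to 243, 174 to 192 and 220 to 303 FPKM in CCL4 libraries (exact permutation p = 0.8, 1 and 0.7). Of 10 smooth muscle and pericyte markers, however, 4 were called higher and 0 lower. Among 10 endothelial markers 1 was higher and 1 lower, as among 9 tested macrophage markers. Markers of plasma and B cells, whose plasma cells carry much ER, summed to 7.14 to 21.5 and 9.44 to 15.2 FPKM (exact permutation p = 0.5). Erythroid genes, 5 of 5 called higher, summed to 537 to 2268 FPKM, the highest in control replicate 1, and to 2231 to 4092 FPKM (exact permutation p = 0.2). The part of these measures in the changes of the ER genes was not tested.

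The size of the branch medians depended on scaling, and their direction did not, apart from translocation. The median over all rows was -0.09 as deposited, -0.23 as TPM, -0.14 with mitochondrial rows removed and -0.0059 with TMM. The chaperone median was -0.66, -0.54 and -0.38 under these 3 alternatives, further below 0 than that of all rows each time. The members called lower numbered 22 as TPM, 21 with mitochondrial rows removed and 16 with TMM. Over all rows the number lower moved as well. It was 4221 of 10995 as TPM, 3122 of 10958 with mitochondrial rows removed and 1616 of 10995 with TMM, against 2441 of 10995 as deposited.

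**Figure D5:**
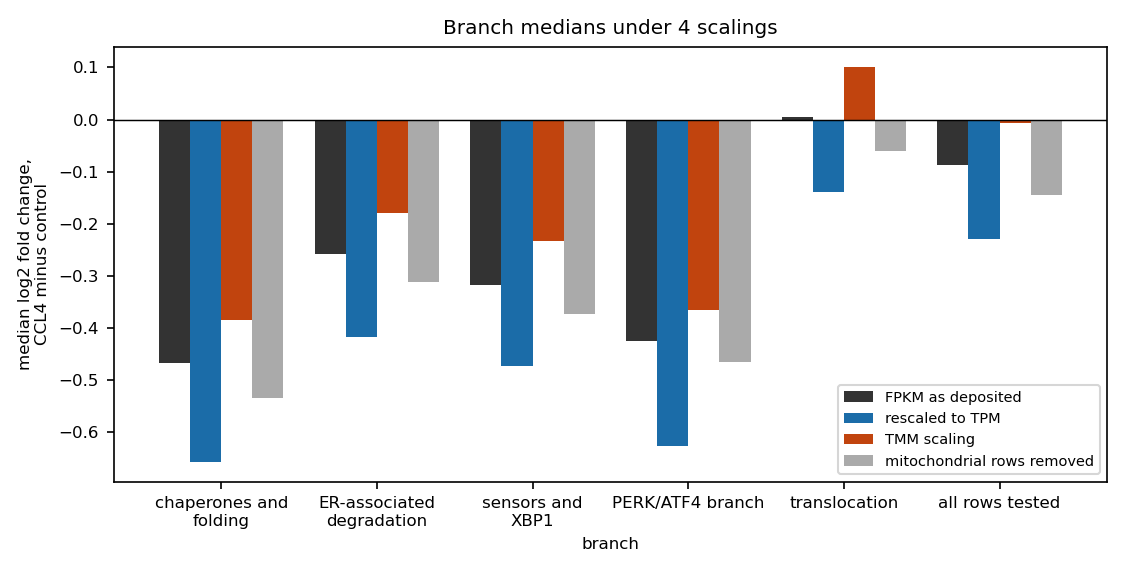
Median log2 fold change of the tested members of each branch and of all rows tested, under FPKM as deposited, TPM, TMM and rescaling without mitochondrial rows. Bars of the chaperone, degradation, sensor and PERK/ATF4 branches lie below 0 and below the bar of all rows under each scaling, while translocation crosses 0.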

How the data were processed

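RNA from 6 libraries, 3 control and 3 CCL4, was captured on oligo(dT) beads, made into libraries that mark the strand, and read from both ends, per the labels' protocols. The authors deposited FPKM values, and the submitters' processing notes name StringTie 2.1.6 and GRCm38. Aligner, annotation, filters and strand setting: not given in the sources used here. Values carry 2 decimals and no counts, so depth and counting intervals are not given. FPKM sums were 519609 to 542738 in control and 588660 to 602763 in CCL4 libraries, so the sum differed between the groups. The table had 0 columns of other samples.

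Deposited FPKM values were put on the scale log2(FPKM + 1). The 10995 rows whose mean over the libraries reached 1 FPKM entered a fit with limma 3.58.1 (R 4.3.3) (eBayes with trend, no covariate, two-sided), with Benjamini-Hochberg adjustment over all of them. Calls were made below an adjusted p of 0.05. Single measures were compared by exact permutation with scipy 1.17.1. Nothing states that libraries came from separate isolations beyond 3 mice per group, so p-values measure the spread between these samples. The members and lists were chosen with earlier results of these data known. All 33 members are reported; of other lists the rule took up to 3 called genes each way by smallest p, and the most abundant markers. TMM factors were computed in R code written for this purpose. Promoters are from RefSeq (GRCm38.p6), positions from GENCODE M21, matched by symbol. Alternatives comprised a pseudocount of 0.1, no filter or a minimum mean of 5 FPKM, TPM, TMM, mitochondrial rows removed, robust variances, library weights, limma without its trend, a replicate block, and each library left out.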

Additional observations from a re-analysis of the deposited data

How the results depend on the processing

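The number of members called lower, 20, was 14 to 20 with a library left out and 16 to 22 under the other alternatives, and no member called in the analysis as deposited changed direction. Members called higher numbered 1 instead of 2 with no filter, at a minimum mean of 5 FPKM, as TPM and with mitochondrial rows removed, and 1 to 2 with a library left out. The cause of these shifts was not tested, beyond fewer rows at the higher filter and fewer samples. Other pathway genes called lower were 63 as TPM and 21 to 30 with a library left out (33 as deposited), and those called higher were 2 at a minimum mean of 5 FPKM, 11 with TMM, 8 with library weights and 4 to 7 with a library left out (5 as deposited). Over all rows, 2441 lower and 1060 higher became 1510 and 655 at a minimum mean of 5 FPKM, 4221 and 617 as TPM, 1616 and 1705 with TMM, and 1546 to 2121 and 642 to 1137 with a library left out. The numbers of lower and of higher calls thus both moved with scaling.

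The chaperone median, -0.47, was -0.54 with a pseudocount of 0.1, -0.66 as TPM, -0.38 with TMM, -0.54 with mitochondrial rows removed and -0.50 to -0.43 with a library left out. The degradation median, -0.26, was -0.33 with a pseudocount of 0.1, -0.65 at a minimum mean of 5 FPKM (2 genes), -0.42 as TPM, -0.18 with TMM and -0.32 to -0.23 with a library left out. The sensor median, -0.32, was -0.49 at a minimum mean of 5 FPKM (2 genes), -0.47 as TPM and -0.36 to -0.27 with a library left out. The PERK/ATF4 median, -0.42, was -0.68 with a pseudocount of 0.1, -0.28 at a minimum mean of 5 FPKM (3 genes), -0.63 as TPM and -0.56 to -0.35 with a library left out. The translocation median, 0.00472, was -0.14 as TPM, 0.10 with TMM, -0.060 with mitochondrial rows removed and -0.02 to 0.04 with a library left out.

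With the replicate number as a block, 17 members were lower and 2 higher, and Manf, Hyou1 and Atf4 were no longer called. Deviations from group means correlated at -0.064, 0.046 and -0.038 between same-numbered libraries, and at -0.097 to 0.123 between those of different number. With 3 libraries in each group these values cannot settle whether the numbers pair the libraries. Values have 2 decimals, so genes near 1 FPKM, such as Chac1, Trib3 and Eif2ak3, are measured coarsely.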
